A study of Drosophila melanogaster with 24 samples.

Results

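Genes that are switched on by neuronal activity, or that belong to the signalling route behind such genes, were followed 1 h after courtship training in heads of male Drosophila melanogaster, each head measured on its own. They were Hr38, sr, kay, Jra, puc, Arc1 and Arc2, 7 genes found by their FlyBase identifiers among the 17559 genes of the deposited expression table. All 7 passed the filter on low values and were among the 10547 genes tested. In male courtship suppression a virgin male is placed with an unreceptive mated female and learns to court less. Males in the 1X trained group had 1 session of 2 h with such a female. Males in the 3X trained group had 3 such sessions with gaps of 30 min. The 1X mock and 3X mock males were handled in the same way for the same time with no female, and every group held 6 flies. Males were housed singly from eclosion until training, heads came from individual flies, and all groups were kept in a light and dark cycle. The paper describes the flies of its trials in general as genetically identical, without naming the background of these males. The labels name no strain or genotype for these flies and give no clock time at which heads were taken.

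When a neuron fires strongly, calcium and kinase signals reach its nucleus and switch on an early wave of genes within minutes to hours, without new protein synthesis. In mammals this wave holds Fos, Jun, the Egr factors, the Nr4a nuclear receptors and Arc. The fly counterparts used here are kay and Jra for Fos and Jun, sr for the Egr factors and Hr38 for the Nr4a receptors. Arc1 and Arc2 are fly genes that share the name of Arc. Hr38 and sr are in wide use as marks of recently active neurons in the fly brain. kay and Jra together make the factor AP-1, which acts downstream of the kinase JNK, and puc encodes a phosphatase that switches JNK off and is itself an AP-1 target.

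None of the 7 genes passed the test for training within either schedule, and the schedule itself went with a lower level of 2 of them. Hr38 and sr were lower in 3X flies than in 1X flies, both among mock and among trained males. The Hr38 difference among mock males passed in only 5 of 12 fits that left out 1 fly. Length of handling and time of day cannot be told apart from the schedule. Over both schedules together puc was lower and Arc2 higher in trained males, each only just past the threshold. One trained fly, 1X trained replicate 1, had 3.75 times the Arc1 and 2.31 times the Arc2 of the next highest fly. Spread was pooled over the 24 flies, so this fly also widened the SE of both genes in the 3X training comparison. In 3X trained males the same 3 flies held the lowest values of Hr38, sr, kay, Jra and puc, but not of Arc1 or Arc2. These flies were picked from those values, and how many other genes share their order was not counted.

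The recovered read totals were 18910097 to 41358909 per head, with a median of 34544712. Levels are given in RPKM (reads divided by transcript length and library size), which allows genes of different length to be compared. Summed RPKM of 5 neuronal markers (elav, nSyb, brp, Syt1 and nrv3) stayed between 472 and 571 in all heads, and none of the 5 passed the test in the 5 comparisons in which they were examined. Heads also carried photoreceptor, glial, fat body, muscle and hemocyte transcripts. Accessory gland markers were at or near 0, with a summed level of at most 0.467 RPKM. The summed testis markers reached 140 RPKM in 3X mock replicate 6 against 27.9 to 38.3 in the other flies. In whole heads, fewer cells that express a gene and less RNA per cell cannot be told apart, and an induction within a few neurons is averaged with all other cells of the head.

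Every member was detected in every head. Over all 24 flies, mean levels ran from 60.2 RPKM for Arc1 through 19.5 for Jra, 17.9 for puc, 16.3 for kay, 6.01 for sr and 5.02 for Hr38 to 4.55 for Arc2. Arc1 therefore stood above 86.8% of tested genes and Arc2 above 23%. The ranges over flies of Jra, puc and kay overlapped each other, as did those of sr, Hr38 and Arc2. Within single heads Jra was above kay in every fly, while the order of the other pairs in these sets changed between flies. At least 799 reads per head lay behind each value of Hr38 and at least 1014 behind each value of sr, whereas Arc2 rested on 75 to 402 reads.

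**Figure D1:**
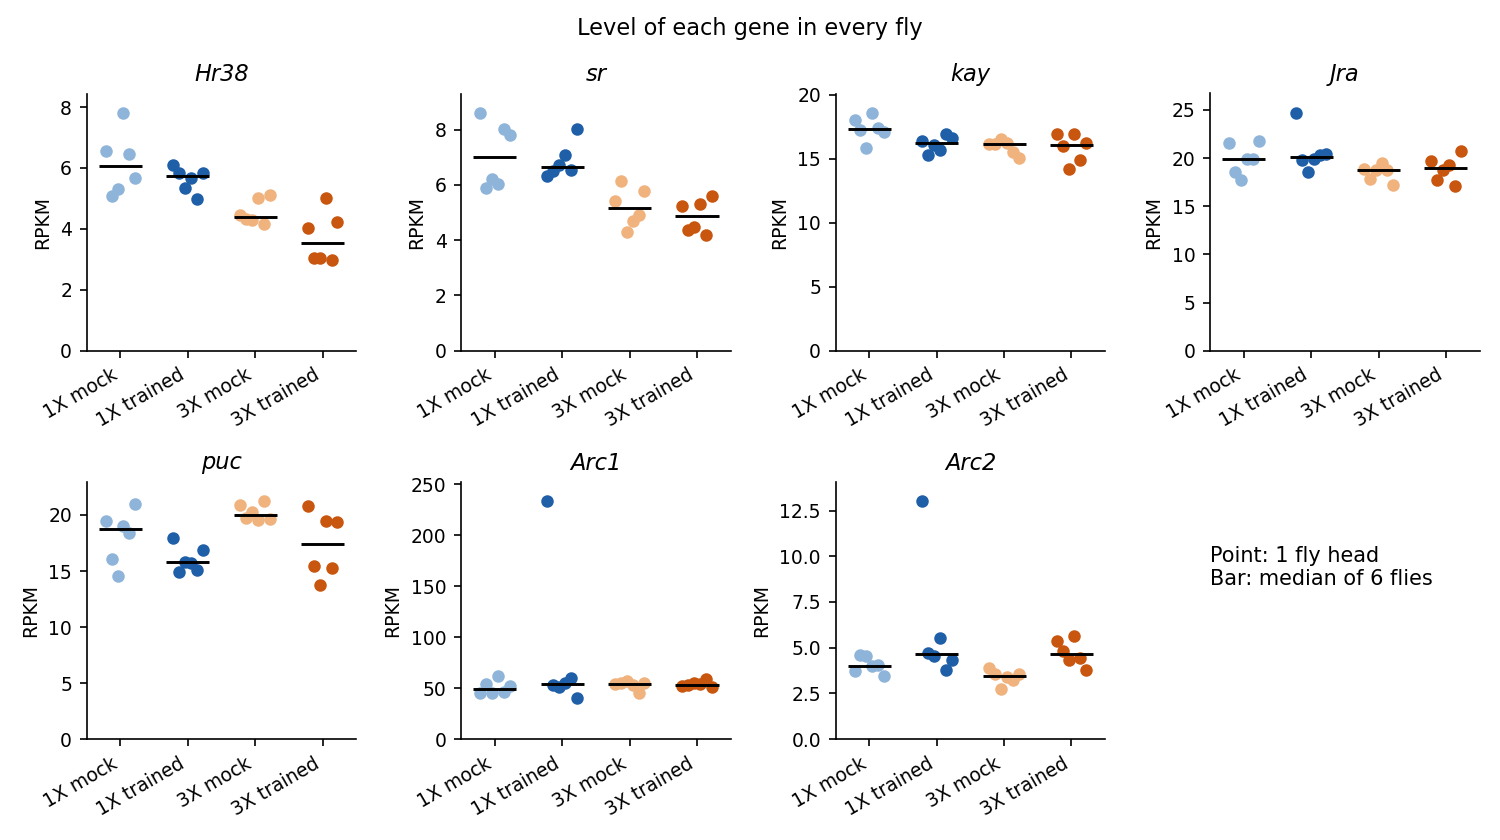
Level of each of the 7 genes in RPKM (vertical axes, each from 0) in the 24 heads, by group; points are single flies and bars are medians of 6. Hr38 and sr sit lower in both 3X groups, and 1 point of the 1X trained group lies far above the rest for Arc1 (234 RPKM) and Arc2 (13 RPKM).

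Hr38 encodes the only fly receptor of the Nr4a class, a nuclear receptor, and lies on chromosome 2L from 20683462 to 20714588 on the minus strand (FBgn0014859; coordinates from the Ensembl annotation of the dm6 assembly). Its level was 5.06 to 7.82 RPKM in 1X mock flies (median 6.06) and 4.98 to 6.1 among 1X trained males (median 5.75). It was 4.17 to 5.1 RPKM in 3X mock flies (median 4.39) and 2.97 to 5.02 among 3X trained males (median 3.55). The 1X groups overlapped over most of their range, while 4 of 6 3X trained flies were below every 3X mock fly. The difference in mean log2(RPKM + 1), the scale of all log2 differences here, was -0.10 ± 0.10 (SE; 95% interval -0.3 to 0.1) after 1X, with an adjusted p of 0.613 in limma, and -0.04 without 1X mock replicate 4. After 3X it was -0.25 ± 0.10 (interval -0.45 to -0.05), with a limma adjusted p of 0.14. Neither passed the threshold of 0.05, and neither interval reached above 0.1. Exons of Hr38 overlap those of CG2617 on the other strand, and the libraries keep no strand, so reads from that overlap are of uncertain origin.

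The schedule comparison of Hr38 gave larger differences. Between the mock groups, 5 of 6 3X flies were below all 1X flies, the mean ratio was 0.742, and the log2 difference was -0.35 ± 0.10 (interval -0.553 to -0.154) at a limma adjusted p of 0.0352. Between the trained groups, 5 of 6 3X flies were again below all 1X flies, the mean ratio was 0.662, and the log2 difference was -0.50 ± 0.10 (interval -0.704 to -0.304) at a limma adjusted p of 0.00149. These comparisons share no fly. The trained one passed in all 12 fits that left out 1 fly. The mock one passed in 5 of 12, with adjusted p from 0.0217 to 0.098, and the 1X mock fly highest in Hr38, replicate 4, gave the last of these values: without it the difference was -0.29. The call was lost without replicate 1, 4 or 5 of 1X mock or replicate 1, 2, 3 or 5 of 3X mock.

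sr (stripe) encodes a zinc finger factor of the Egr family, which in the fly is also known for making tendon cells, and lies on 3R from 18090803 to 18135583 on the plus strand (FBgn0003499). Levels were 5.89 to 8.62 RPKM among 1X mock males (median 7.02), 6.32 to 8.04 among 1X trained males (median 6.64), 4.31 to 6.13 among 3X mock males (median 5.15) and 4.18 to 5.59 among 3X trained males (median 4.87). Trained and mock flies of one schedule overlapped widely. The training difference was -0.03 ± 0.09 after 1X (interval -0.218 to 0.153; adjusted p = 0.885) and -0.08 ± 0.09 after 3X (interval -0.265 to 0.106; adjusted p = 0.653), both from limma.

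The schedule comparison of sr also gave larger differences than training did. In the mock groups 5 of 6 3X flies were below all 1X flies, with a mean ratio of 0.733 and a log2 difference of -0.38 ± 0.09 (limma adjusted p = 0.0137). In the trained groups all 6 3X flies were below all 6 1X flies, with a mean ratio of 0.708 and a log2 difference of -0.43 ± 0.09 (limma adjusted p = 0.00315). Groups without overlap in that comparison made up 4.28% of all tested genes. Both sr differences passed in all 12 fits that left out 1 fly and in all 9 other settings tried.

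**Figure D2:**
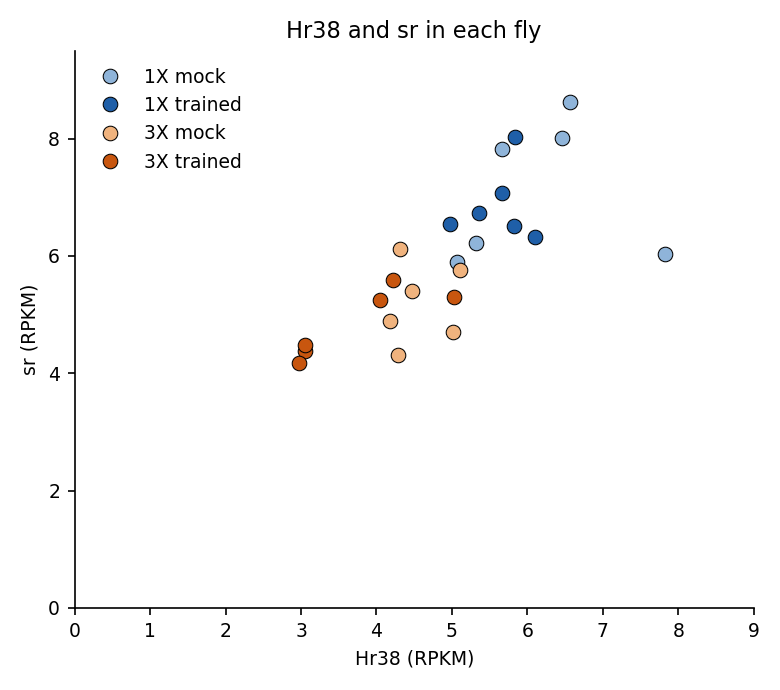
Hr38 (horizontal axis, RPKM) against sr (vertical axis, RPKM) in each of the 24 heads, coloured by group. The 12 flies of the 3X groups reach at most 5.1 RPKM of Hr38 and 6.13 RPKM of sr and lie toward the lower left of the 1X flies, and 3 flies of the 3X trained group sit together at 2.97 to 3.06 RPKM of Hr38.

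Of the 7 members, 2 were called between the mock groups against 4.34% of all tested genes, and both were lower, as were 2.34% of all tested genes. Between the trained groups the same 2 were called, against 11.1% of all genes in either direction and 4.69% that were lower. The 3X flies had been handled for longer and were taken later after the start of handling than the 1X flies, so length of handling and time of day cannot be told apart from the schedule. Transcripts of the daily clock moved with it. The clock gene tim was 8.17 to 21.8 RPKM over all 1X flies and 74.9 to 128 over all 3X flies, and its log2 difference between mock groups was 2.87 (limma adjusted p = 4.6e-12). The part of the clock or of handling in the levels of Hr38 and sr was not tested. The 5 neuronal markers differed less, with log2 differences of -0.10 to -0.03 between mock groups and -0.09 to -0.01 between trained groups and none called. Of the 5 photoreceptor markers, trp was higher in 3X flies in both comparisons and ninaC in the mock one.

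**Figure D3:**
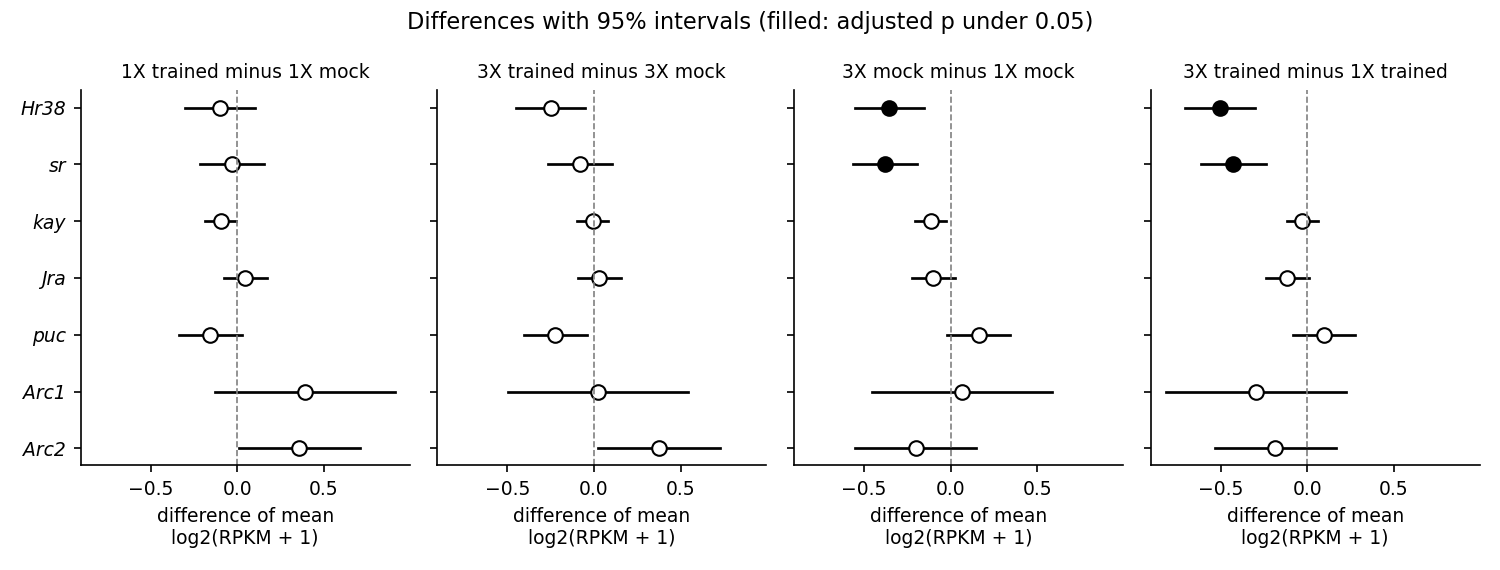
Difference of mean log2(RPKM + 1) for each gene in 4 comparisons of 6 flies with 6 (horizontal axes), with 95% intervals from limma; filled points have an adjusted p under 0.05. The filled points are Hr38 and sr in both comparisons of 3X with 1X flies, all below 0, and no point is filled for training within a schedule.

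kay and Jra encode the partners in AP-1, and kay varied little. kay (FBgn0001297, 3R, 29765995 to 29794113, plus strand) was at 15.8 to 18.6 RPKM among 1X mock males (median 17.3), 15.3 to 17 among 1X trained males (median 16.3), 15 to 16.5 among 3X mock males (median 16.1) and 14.2 to 16.9 among 3X trained males (median 16.1). All groups overlapped. The 1X training difference was -0.10 ± 0.04 (interval -0.184 to -0.00664), with an unadjusted p of 0.0363 and an adjusted p of 0.203 in limma, and the 3X difference was -0.01 ± 0.04 (adjusted p = 0.94). The residual SD of kay within groups was 0.0704 on the log2 scale, larger than that of only 12% of the 500 genes closest to it in level.

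Jra (FBgn0001291, 2R, 10096480 to 10098556, plus strand) was at 17.7 to 21.8 RPKM among 1X mock males (median 19.9), 18.5 to 24.7 among 1X trained males (median 20.1), 17.2 to 19.5 among 3X mock males (median 18.7) and 17.1 to 20.7 among 3X trained males (median 19). The groups overlapped in each comparison, with 1X trained replicate 1 highest of all 24 flies. The SD within groups was 0.104 on the log2 scale, near the median of 0.105 of the 500 genes closest in level. Training differences were 0.05 ± 0.06 after 1X (adjusted p = 0.72) and 0.03 ± 0.06 after 3X (adjusted p = 0.83) in limma. Without 1X trained replicate 1 the 1X value was -0.01. Exons of Jra overlap those of RpLP0-like on the other strand, so part of its reads is of uncertain origin as well.

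puc (puckered; FBgn0243512, 3R, 8105332 to 8122294, plus strand) is the feedback phosphatase of JNK. Its level was 14.5 to 21 RPKM among 1X mock males (median 18.7), 14.9 to 17.9 among 1X trained males (median 15.8), 19.6 to 21.2 among 3X mock males (median 20) and 13.7 to 20.8 among 3X trained males (median 17.4). The 1X groups overlapped, and 5 of 6 3X trained flies lay below all 3X mock flies. The log2 difference was -0.16 ± 0.09 after 1X (adjusted p = 0.318) and -0.22 ± 0.09 after 3X (adjusted p = 0.143) in limma. As a mean effect over both schedules it was -0.19 ± 0.06 (interval -0.317 to -0.0621), with an adjusted p of 0.048. That call passed in 7 of 24 fits that left out 1 fly, where adjusted p ran from 0.0198 to 0.087. The flies whose absence left it standing were replicates 2 and 3 of 1X mock, 1 and 6 of 1X trained and 1, 4 and 6 of 3X trained. It was also lost with no filter on low values (adjusted p = 0.0774). Spread differed between groups: the SD of puc in RPKM was 0.723 for the 3X mock group and 2.9 for the 3X trained group.

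Arc1 and Arc2 are neighbouring, related genes. In the fly, Arc1 protein forms capsid-like particles that carry its own mRNA out of neurons. Arc1 (FBgn0033926) runs from 14357927 to 14360297 on the minus strand of 2R, and Arc2 (FBgn0033928) from 14361924 to 14362825 on the plus strand, with 1626 bases between them. In that gap lies CR10102, an annotated pseudogene from 14360433 to 14361780 on the strand of Arc1, 135 bases from Arc1 and 143 from Arc2. Sequence shared between these genes was not examined, so a split of reads among them by the alignment was not tested.

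Arc1 was at 45.3 to 62.3 RPKM among 1X mock males (median 49.3), 40.6 to 234 among 1X trained males (median 54.4), 45.4 to 56.5 among 3X mock males (median 54.6) and 51.6 to 59.3 among 3X trained males (median 53.4). With 1 exception the 24 flies fell between 40.6 and 62.3 RPKM, and all groups overlapped. The exception was 1X trained replicate 1, at 4.37 times the median of the other 5 flies of its group and 3.75 times the highest of the other 23 flies. The 1X training difference was 0.39 ± 0.25 (limma adjusted p = 0.403), and without that fly it was 0.03. After 3X it was 0.02 ± 0.25 (limma adjusted p = 0.975). Spread was pooled over all 4 groups, so that fly also widened the SE after 3X. The SD of Arc1 within groups was 0.463 on the log2 scale with it and 0.15 without it. In the 3X mock and 3X trained groups alone the SD was 0.114 and 0.0723.

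Arc2 was at 3.46 to 4.6 RPKM among 1X mock males (median 4.02), 3.79 to 13 among 1X trained males (median 4.63), 2.75 to 3.88 among 3X mock males (median 3.48) and 3.77 to 5.65 among 3X trained males (median 4.63). Of the trained flies, 3 of 6 after 1X and 5 of 6 after 3X were above every mock fly of their schedule. The log2 difference was 0.36 ± 0.17 after 1X (adjusted p = 0.228) and 0.38 ± 0.17 after 3X (adjusted p = 0.202) in limma. Without 1X trained replicate 1 the 1X difference was 0.13. As for Arc1, that fly also widened the pooled SE after 3X, though it is not among the flies compared there. The SD of Arc2 within groups was 0.31 on the log2 scale with it and 0.15 without it. In the 3X mock and 3X trained groups alone the SD was 0.129 and 0.178. The mean effect over both schedules was 0.37 ± 0.12 (interval 0.119 to 0.615), with a limma adjusted p of 0.0489. Without that fly the mean effect was 0.26 with a limma adjusted p of 0.0105. Leaving out 1 fly at a time kept the call in 6 of 24 fits, with adjusted p from 0.0105 to 0.0795, and of 7 other settings 3 kept it (adjusted p from 0.0202 to 0.0831). The 6 were replicate 2 of 1X mock, replicates 1, 3, 5 and 6 of 1X trained and replicate 6 of 3X trained. Arc1 had a mean effect of 0.21 ± 0.18 (adjusted p = 0.471), and 0.03 without 1X trained replicate 1. In the same comparison, 2 of 4 fat body markers (bmm, -1.14, and apolpp, -0.21) and 1 of 4 muscle markers (Mhc, -0.20) were called lower in trained males. The clock gene tim was called lower as well (-0.34). No cell marker was called higher, though Lsd-1 of the fat body was at 0.21 and Sr-CI of hemocytes at 0.34. The part of these tissues and of the clock in the differences of puc and Arc2 was not tested.

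**Figure D4:**
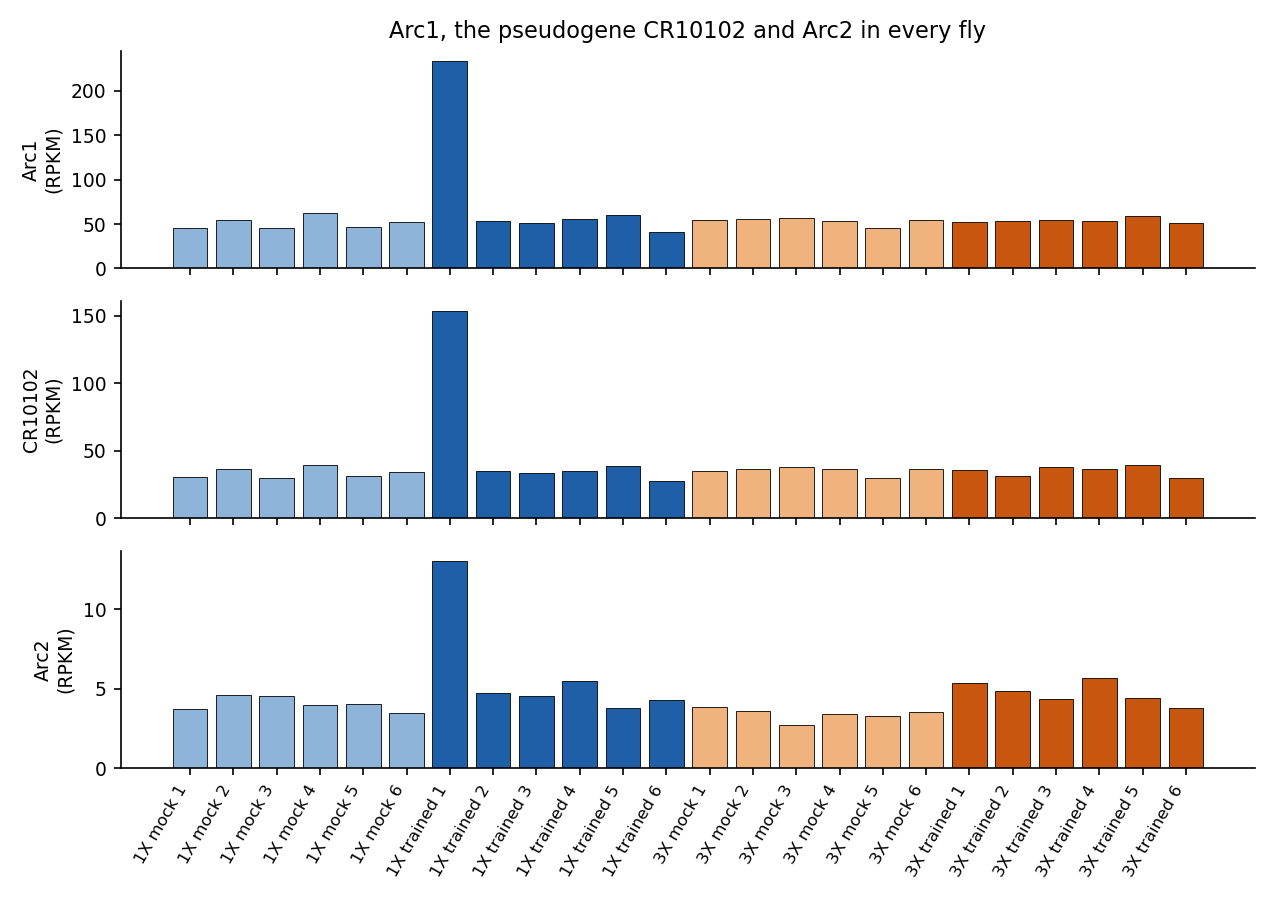
RPKM of Arc1, the pseudogene CR10102 and Arc2 (vertical axes from 0) in each of the 24 heads, coloured by group as in the plot of Hr38 against sr. The bar of 1X trained replicate 1 stands far above the others in all 3 panels, at 234, 153 and 13 RPKM.

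The calls for the 7 members were set against those for all tested genes. Within 1X, limma called 0 members, where 4.94% of all genes were called, and 2 members (kay and Arc2) had an unadjusted p under 0.05, as did 20.8% of all genes. Within 3X it called 0 members, where 2.27% of all genes were called, and 3 (Hr38, puc and Arc2) had an unadjusted p under 0.05, as did 21.2% of all genes. The mean effect called 2 members, where 11.6% of all genes were called. The difference between the 3X and the 1X effect called 0 members, with adjusted p from 0.616 to 0.988 and none at an unadjusted p under 0.05, where 0.171% of all genes were called. limma's voom on recovered reads called 0 members in the same 3 comparisons and 1 for the mean effect.

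1X trained replicate 1 also stood apart outside the 7 genes. It had 36 tested genes at least 1 log2 unit above every other fly, against 0 to 5 in each of the other 23 flies. By the size of that gap Arc1 ranked 10. Ahead of it, among genes looked at after their values were seen, were Vago at 486 RPKM against at most 37.3 elsewhere and Sting at 67.7 against at most 17.4. Vago encodes a secreted antiviral factor, and Sting an innate immune sensor protein. The antimicrobial peptide gene Mtk was at 139 RPKM against at most 30.4, and the summed fat body markers of this fly were the lowest of all heads, at 607 RPKM. Its summed muscle markers (242 RPKM) were also the lowest of all heads. Its neuronal (478) and glial (1187) sums were the lowest of its group, while its photoreceptor and hemocyte sums were not. Its library scaling, at 1.117 times the recovered total, was the highest of all heads. CR10102, the pseudogene beside Arc1, was at 153 RPKM against 27.7 to 39.9 in the other flies. Hr38, sr, kay and puc did not stand apart in it: their ranks from the highest of 24 flies were 4, 9, 11 and 14. The part of these immune transcripts, of its tissue makeup and of its scaling in its Arc1 and Arc2 levels was not tested.

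Some members varied together between like-treated flies. Pearson's r was taken over the 24 flies after subtracting group means from log2(RPKM + 1), for 21 pairs, with two-sided permutation p-values from 100000 permutations of flies within groups. Of these pairs, puc with Jra gave r = 0.71 (p = 0.00024, adjusted p = 0.00504) and rho = 0.784 (p = 0.00014, adjusted p = 0.00294). puc with kay gave r = 0.708 (p = 0.00238, adjusted p = 0.025) and rho = 0.626 (p = 0.00861, adjusted p = 0.0571). Without the 2 flies farthest from the median of Jra or of kay, these r were 0.673 and 0.519. The other pairs among Hr38, sr, kay, Jra and puc had r from 0.242 to 0.66 and adjusted p of at least 0.0858 for r and 0.0571 for rho. The share of all gene pairs with an r this high was not counted. Genes outside the members reached higher values, such as CG32486 with puc (0.794) and GstE11 with Jra (0.755), so a relation particular to the members was not tested.

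Arc1 and Arc2 had r = 0.833 over all flies (permutation p = 0.0902, adjusted p = 0.191; rho = 0.404, p = 0.113, adjusted p = 0.237). Without 1X trained replicate 1, r was -0.02, so the relation rested on that fly. Arc1 and Jra went the same way, from r = 0.528 (permutation p = 0.131; rho = 0.126, p = 0.544) to -0.19 without it. All these values share the scaling of each library.

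**Figure D5:**
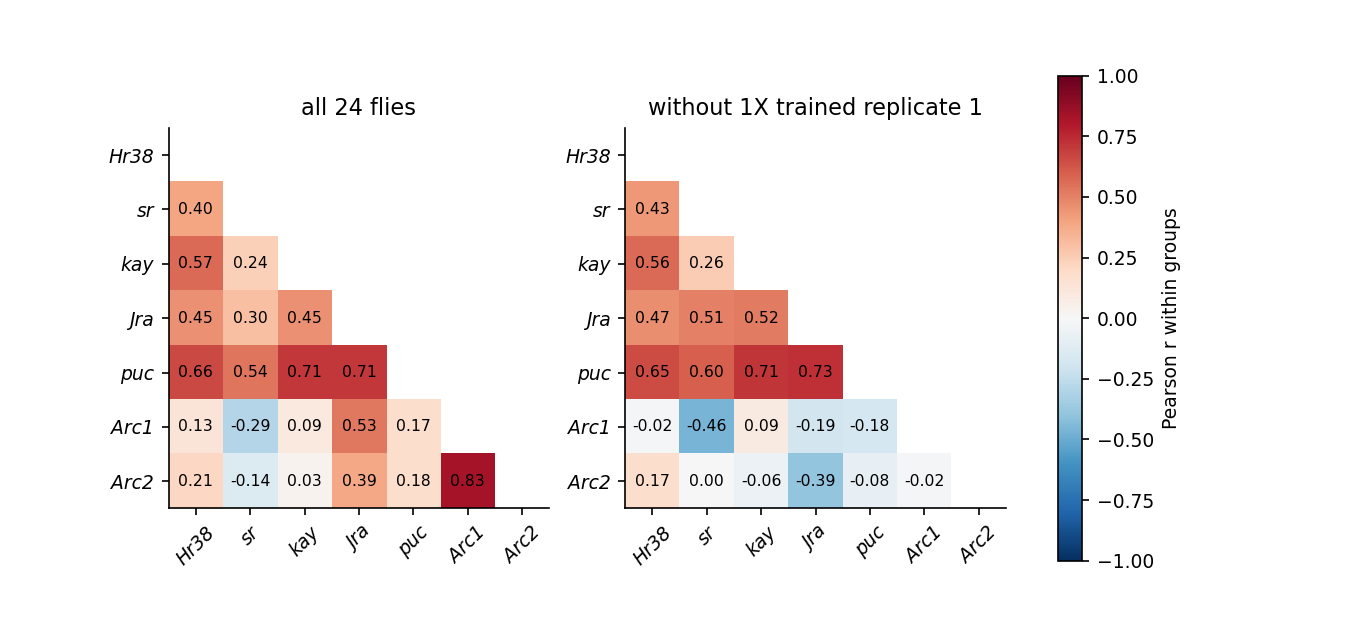
Pearson r between each pair of the 7 genes over flies, after subtracting group means from log2(RPKM + 1), for all 24 flies (left) and without 1X trained replicate 1 (right); colour runs from -1 (blue) to 1 (red). The block of positive values among Hr38, sr, kay, Jra and puc is present on both sides, while Arc1 with Arc2 goes from 0.833 to -0.02.

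The values of single 3X trained males are part of the correlations above and add no support to them. The flies set apart here were picked from these values, and how many other genes share their order was not counted. Replicates 2, 3 and 5 had 3.06, 3.05 and 2.97 RPKM of Hr38, and replicates 1, 4 and 6 had 4.04, 5.02 and 4.22. For puc the same 3 flies had 15.5, 13.7 and 15.2 RPKM, and the others had 20.8, 19.5 and 19.4. Replicates 2, 3 and 5 were also the lowest 3 of the 6 in sr (4.38, 4.48 and 4.18 RPKM), kay and Jra. In Arc1 they were not, since replicates 3 and 5 were the highest of the 6, and in Arc2 the lowest fly was replicate 6. Replicate 3 stood apart more widely: 1054 tested genes were highest and 991 lowest in it among all 24 flies, more than in any fly but 1X trained replicate 1, and its summed neuronal (472 RPKM), hemocyte (43.3) and fat body markers (1838) were the lowest of its group. Without it the mean effect of puc was -0.16 (limma adjusted p = 0.087). Group membership was not changed on this basis, and no test was made on it.

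The genes most like each member were taken as the 3 tested genes with the highest r on the same scale over 24 flies, leaving out overlapping genes. As the highest of 10547 genes they are a description. For Hr38 they were l(3)L1231 (0.791), CG32486 (0.753) and CG34054 (0.723). For sr they were Nrt (0.736), a cell adhesion protein of the nervous system, CG14186 (0.699) and CG10096 (0.697). CG14186 is itself on the list of further activity-regulated genes below. None of the other tested genes of that list was among the 3 most like any member. For kay they were CG1208 (0.748), CG12054 (0.739) and gukh (0.734).

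Jra was most like GstE11 (0.755), a glutathione transferase, Ndfip (0.751) and Krn (0.749), an EGF receptor ligand. Without 1X trained replicate 1, the gene most like Jra was puc (0.73). For puc the 3 were CG32486 (0.794), CG12054 (0.772) and the deacetylase Sirt1 (0.769), so puc shared CG32486 with Hr38 and CG12054 with kay. For Arc1 they were CR10102 (0.991), asRNA:CR45604 (0.931) and Sting (0.922). Of these only CR10102 kept a high r without 1X trained replicate 1 (0.913), while the r of asRNA:CR45604 and Sting fell to -0.03 and 0.283. For Arc2 they were the RNA ligase RtcB (0.898), the proteasome assembly factor Pomp (0.888) and Charon (0.883), at 0.462, 0.615 and 0.267 without that fly.

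Genes around the members were taken in 6 lists with 77 names, of which 74 were matched and 71 tested. Within 3X no list gene passed in limma (8 had an unadjusted p under 0.05, and voom called 0). Within 1X, 3 passed, over both schedules 8, between the mock groups 4 and between the trained groups 6. These are 4.23%, 11.3%, 5.63% and 8.45% of the 71, beside 4.94%, 11.6%, 4.34% and 11.1% of all tested genes. The share in the lists was near the background or below it except between the mock groups, where it was a little above, so the genes named next are single results. The difference between the schedules' effects called 0, with 4 at an unadjusted p under 0.05 and 0 by voom.

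The first list holds further genes described as activity-regulated in fly neurons, and 8 of its 9 names were tested. None passed for training in either schedule, and the list's median log2 difference was -0.08 after 1X and -0.03 after 3X, beside 0.0021 and 0.00894 over all genes. Between mock groups 1 was lower and none higher, with a median of -0.19 beside 0.00606 over all genes; 7 of 8 were below 0, as were 47.6% of all genes, and 2.34% of all genes were called lower. Between trained groups 1 was again lower, with a median of -0.11 beside 0.00734 over all genes. The gene that passed both times was meng, a kinase gene, at 12.3 ± 1.31 RPKM and 11.7 ± 0.96 in the 1X mock and trained groups and 10.1 ± 0.448 and 9.49 ± 1.03 in the 3X mock and trained groups (SD, n = 6). Its log2 differences were -0.25 (limma adjusted p = 0.0404) and -0.27 (0.0122), and the mock one passed in 3 of 12 fits that left out 1 fly.

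Among 12 genes of the JNK pathway upstream of Jra, kay and puc, none passed within a schedule. wnd, the kinase DLK of the fly, which starts the injury response of axons through JNK, was lower over both schedules together by a log2 of -0.16 (limma adjusted p = 0.0119). Its means were 10.3 and 9.08 RPKM in 1X mock and trained flies and 10 and 8.97 in the 3X groups. msn, a kinase further up the same pathway, was lower in 3X trained than in 1X trained flies by -0.19 (limma adjusted p = 0.00248). List medians lay within 0.03 of 0 in the comparisons of trained with mock and of 3X with 1X flies.

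Of 12 tested genes of the Ras and ERK pathway, drk, the Grb2 adaptor, was higher after 1X training. It stood at 18.9 ± 0.742 RPKM against 16.4 ± 0.504 in mock flies (SD, n = 6), a log2 difference of 0.20 (limma adjusted p = 0.00538), and at 17 RPKM in both 3X groups. pnt, an ETS factor at the end of the pathway, was higher over both schedules by 0.14 (limma adjusted p = 0.043), but not without 1X trained replicate 1 (0.0674), and it passed in 9 of 24 fits that left out 1 fly. drk also passed as a mean effect (0.10, limma adjusted p = 0.0252). Between trained groups drk (-0.15, adjusted p = 0.0153) and the ERK phosphatase gene Mkp3 (-0.19, 0.00315) were lower in 3X flies in limma, the drk call being lost when only the groups compared were fitted (0.0698), and between mock groups the kinase gene Raf was higher (0.18, adjusted p = 0.0352; kept in 4 of 12 fits without 1 fly).

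Of 18 tested genes that carry calcium and cAMP signals to the nucleus, none passed within a schedule. CrebA, a bZIP factor known for its role in secretion, was higher over both schedules by 0.15 (limma adjusted p = 0.0411, and 0.0674 without 1X trained replicate 1; it passed in 10 of 24 fits without 1 fly). Pka-R1, a regulatory subunit of protein kinase A, was lower in 3X flies in both comparisons, by -0.20 between mock groups and -0.19 between trained groups (limma adjusted p = 0.00496 and 0.00458). CrebB, the fly CREB factor required for long-term memory, was lower in 3X trained than in 1X trained flies by -0.16 (limma adjusted p = 0.00829, and 0.0543 when only the groups compared were fitted).

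Of 10 genes known as JNK and AP-1 targets in injured or stressed tissue, 7 were tested, and Ilp8, upd2 and upd3 stayed below the filter. Mmp1, a matrix protease, was at 6.22 ± 1.15 RPKM in 1X mock flies, and at 8.76 ± 1.39, 8.98 ± 0.705 and 8.74 ± 0.967 RPKM after 1X training, 3X mock handling and 3X training (SD, n = 6). Its log2 difference was 0.44 after 1X training (limma adjusted p = 0.0109) and 0.48 between mock groups (limma adjusted p = 0.00403), and the 1X mock group had the lowest mean of the 4. Over both schedules Thor, the translation repressor 4E-BP, was lower by -0.87 (limma adjusted p = 0.0105) and Ets21C, an ETS factor, higher by 0.38 (limma adjusted p = 0.0268). Thor means were 234 and 135 RPKM in 1X mock and trained flies and 282 and 177 RPKM after 3X. Of the 4 tested fat body markers, bmm (-1.14) and apolpp (-0.21) were lower in the same comparison, Lsp2 was at -1.42 (adjusted p = 0.0878 in limma) and Lsd-1 at 0.21 (0.44). The part of fat body RNA in the level of Thor was not tested.

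Among 14 partners and relatives of the member transcription factors, the nuclear receptor genes Eip75B and EcR passed. With 1X training Eip75B was at 13 ± 0.455 RPKM against 15.6 ± 1.12 in the mock group (SD, n = 6), a log2 difference of -0.25 (limma adjusted p = 0.0102), and its mean effect was -0.18 (limma adjusted p = 0.00461). EcR, the ecdysone receptor, had a mean effect of -0.10 (limma adjusted p = 0.0238). None of the 14 passed between the 3X and 1X groups.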

How the data were processed

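RNA of 24 single fly heads was measured with non-stranded SMART-Seq v4 libraries. The deposited table gives RPKM, 1 column per fly and none pooled; per the labels they used bcl2fastq 2.18, TopHat2 2.0.13, edgeR 3.18.1 and dm6, while another section of the methods names an older TopHat, dm3 and cuffdiff. The IDs were matched to symbols (17252 of 17559) and to the Ensembl 115 annotation of dm6. Whole reads were recovered from the RPKM values with exonic lengths for 99.99% of 16992 genes above 0 (tolerance 0.02 reads). RPKM depends on the library scaling the authors applied, which was 0.951 to 1.12 times the recovered total. Reads carry no molecular identifiers, so a number of reads is not a number of molecules, and its precision may be lower than counting alone would give.

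The scale of analysis was log2(RPKM + 1), which understates changes of low genes. Genes reaching 1 RPKM in 6 or more flies were tested. With limma 3.58.1 (eBayes with trend, R 4.3.3), 1 mean per group was estimated over the 24 flies; p-values are two-sided, with Benjamini-Hochberg adjustment over 10547 genes and a threshold of 0.05. The script was tested on simulated data. Each fly is 1 sample, and the methods describe separate flies. Alternatives were another pseudocount, other filters, median-ratio and quantile scaling, only the groups compared, array weights, voom on recovered reads, a replicate block and leaving out each fly. Those for list genes, and the correlations without 1X trained replicate 1, were chosen after seeing the data. The genes named were the 7 members, the 3 genes most like each, the members of 6 lists called in any of 6 comparisons, and cell markers; the genes that lead in 1X trained replicate 1, and tim, were chosen after their values were seen. Members and lists were chosen with earlier results of these data known. The flies set apart within the 3X trained group were picked from their own values. Listed genes CG30497, cnk and CanA-14F were not analysed here.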

Additional observations from a re-analysis of the deposited data

Results flagged for a closer look

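In 28 sets of 6 flies (7 genes in 4 groups), 4 sets held a fly that lay far from the other 5 by Dixon's ratio of the gap to the whole range on the log2 scale, where chance gives about 1 in 20 sets, or 1.4 here. 1X trained replicate 1 was that fly in 3 sets: Arc1 (ratio 0.777, 234 RPKM), Arc2 (0.715, 13 RPKM) and Jra (0.656, 24.7 RPKM). The fourth was 3X mock replicate 5, low in Arc1 (0.706, 45.4 RPKM).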

How the results depend on the processing

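The calls of Hr38 and sr between trained groups and of sr between mock groups held in every fit. The other member calls lay near the threshold. Leaving out 1 fly gave 1 to 2 called members between mock groups and 0 to 2 for the mean training effect. Genes called then ran from 302 to 503 (1X), 26 to 612 (3X), 815 to 1516 (mean effect) and 3 to 107 (difference of effects), against 521, 239, 1226 and 18 with all flies.

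No filter on low values gave 345 (1X), 109 (3X) and 9 (difference) called genes, 0 members for the mean effect and 1 between mock groups. For the mean effect 1 member was called with median-ratio scaling, quantile normalization or voom. The filter of 5 RPKM also gave 1, but Arc2 did not pass that filter and was not tested. Fitting only the groups compared gave 54 genes for 3X and 568 between trained groups. Array weights gave 894 (1X), 382 (3X), 120 (difference) and 728 (mock groups), and turned Jra after 1X to -0.0095 and Arc2 between trained groups to 0.021. Quantile normalization turned Arc1 after 3X to -0.017. The cause of these shifts was not tested.

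Leaving out 1 fly also turned the sign of small differences that were not called. After 1X, sr ran from -0.0763 to 0.0199 and Jra from -0.0052 to 0.074. After 3X, kay ran from -0.027 to 0.0205 and Arc1 from -0.021 to 0.041. Between trained groups Arc1 ran from -0.44 to 0.061 and Arc2 from -0.27 to 0.038, turning in both only without 1X trained replicate 1.

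Replicate numbers did not pair the flies: correlations of same-numbered deviations from group means ran from -0.237 to 0.147, and at most 1 of 6 flies correlated best with its own number. With the replicate block 8 genes were called for the difference of effects, Hr38 passed for the mean effect (adjusted p = 0.0382 in limma), and no member call was lost; of the list genes, CrebA lost its call for the mean effect (adjusted p = 0.0587). Among 71 list genes, the counts called differed by over 1.5 times from the main ones in 13 of 148 fits. Depth limited Arc2 most, with 75 reads in the shallowest case.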
